A study of Arabidopsis thaliana with 12 samples.

Results

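The genes described here were those whose transcripts were higher after antimycin A in Arabidopsis thaliana seedlings on plain medium, with little or no such difference in seedlings kept on added auxin. The samples are labelled Col:LUC (ecotype Col-0), while the growth protocol names seeds of Col-0 and Attim17-1, and the labels do not settle how these relate. RNA came from seedlings in bulk, so that fewer cells of a type and less RNA per cell cannot be told apart. They grew for 10 days on B5, a standard plant culture medium, and then spent 3 days on fresh plates of B5 or of B5 containing the synthetic auxin NAA at 4.5 µM. On both media some seedlings then received 50 µM antimycin A for 3 hours. These are called treated below, and the others untreated. Each of the 4 groups had 3 Affymetrix arrays each, described as biological triplicates. The labels do not say whether untreated seedlings got the solvent alone, so that antimycin A and its solvent cannot be told apart. Values are linear intensities of probe sets, and effects are differences of group means of log2(intensity + 16), a scale that understates the change of dim transcripts.

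Antimycin A blocks complex III of the mitochondrial respiratory chain. In plants such a block alters nuclear transcription, a response called mitochondrial retrograde signalling, and auxin signalling has been described as acting against it in Arabidopsis. A transcript can lack an antimycin A response on auxin either because it stays low in both NAA groups or because it is already high there before treatment.

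A probe set was a member if its antimycin A effect was at least 1.5 on B5 and at most 0.5 on NAA. Of 22746 probe sets 44 met both thresholds, and 3 of them were left out by name, namely those of the small heat shock protein HSP26.5 (AT1G52560), of ROF2 (AT5G48570), a heat-induced peptidyl-prolyl isomerase, and of GH3.5 (WES1), which joins auxin to amino acids. The WRKY, CML, PUB, ATG and SCPL families and the organelle genomes were to be left out too, but 0 of the 44 carried such a name. The remaining 41 members held 16 probe sets with 1 gene, 1 probe set shared by 2 genes and 24 that the array annotation used here leaves unnamed, some of which could belong to those families. Probe sets with 1 gene made up 39% of the members and 59.4% of all probe sets. Of the 16 genes, EFR has a symbol and the other 15 are given by locus code, for which the annotation states no role.

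Both antimycin A effects chose the members, so they are given as a description without a test. On B5 772 probe sets had an effect of at least 1.5. Of these 409 reached 1.5 on NAA as well, 319 lay between the thresholds on NAA, and the 44 were 5.7% of the 772. With the thresholds exchanged between the media, 30 probe sets were higher on NAA only. The median effect of the 41 members was 1.78 on B5 (range 1.5 to 4.79) and 0.32 on NAA (range -0.45 to 0.50), against medians of 2.21 and 1.59 for the 772. Most members sat near the lower limit on B5, with an unnamed probe set (252265_at, 4.79) and AT3G22060 (4.51) far above the rest, the next being 2.64 (260399_at). The 4 members nearest the thresholds on the inside were an unnamed probe set at 1.5 and AT5G55050 at 1.52 on B5, and 2 unnamed ones at 0.50 on NAA. Just outside on B5, the nearest were 2 probe sets not given to 1 gene, at 1.499 and 1.491. The nearest there with 1 gene, AT5G09800 and TBL38, reached 1.48 and 1.45. Just outside on NAA, AT5G24810 and the expansin-like gene EXLA1 stood at 0.501 and 0.502, beside effects of 1.52 and 1.94 on B5.

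**Figure D1:**
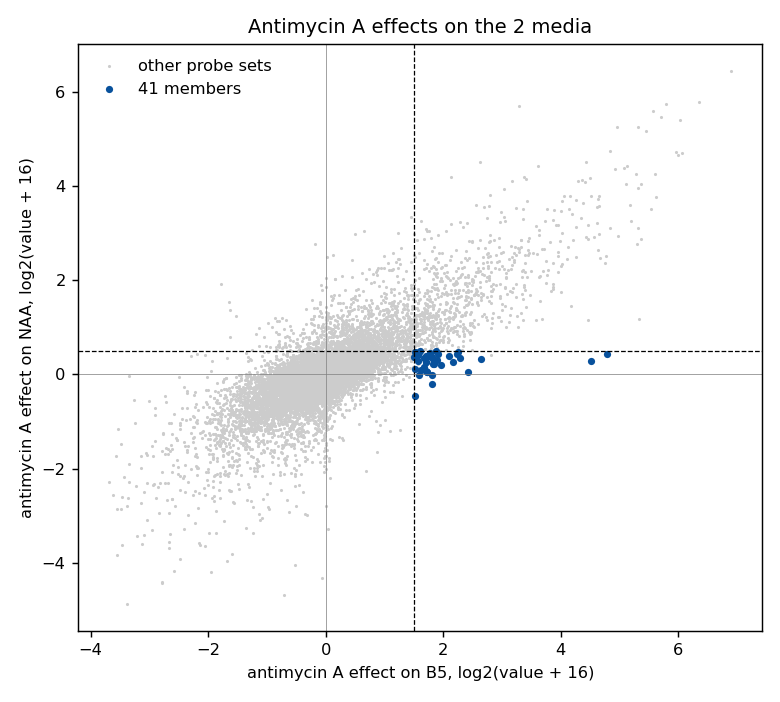
Antimycin A effect on NAA against that on B5 for all 22746 probe sets, both as differences of group means of log2(value + 16). Dashed lines mark the thresholds of 1.5 and 0.5, and the 41 members (blue) lie to the right of and below them, 2 of them beyond 4 on the horizontal axis.

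EFR encodes a receptor kinase of the plasma membrane that recognises the bacterial elongation factor EF-Tu and starts pattern-triggered immunity. Its intensities were 11.4, 11.1 and 10.6 on B5 and 80.3, 63.1 and 95.3 on B5 with antimycin A. On NAA they were 6.16, 7.01 and 8.92, and 15.5, 9.75 and 18.1 with antimycin A. All 3 treated arrays on B5 stood well above the other 9 arrays, and the treated NAA arrays reached only about the level of untreated B5. They still lay above the untreated NAA arrays without overlap, with means of 14.5 and 7.36 and an antimycin A effect of 0.37. Without antimycin A all 3 NAA arrays lay below the 3 B5 arrays, a difference that was not called (log2 -0.21 ± 0.13, SE, limma adjusted p = 0.325). With antimycin A the NAA effect was -1.65 ± 0.13 (SE, limma adjusted p = 4.64e-05). P-values of members' NAA effects at each level of antimycin A, here and later, are a description, since the rule uses the same arrays. Genes of the lists here and below count as measured where the annotation gives a probe set to that 1 gene. As it leaves 8730 probe sets unnamed, a list may hold only a part of its family. Of the 3 other measured genes of the receptor kinase list, the cell wall sensor THE1 had antimycin A effects of 0.30 on B5 and -0.21 on NAA. FER, a receptor of secreted peptides, had 0.08 and 0.40, and AT5G18610 had 0.01 on both. EFR was the 1 gene of these 4 called higher on B5 (14.3% of all probe sets were called higher and 18.7% called lower there), a contrast that the rule used.

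Several loci shared the pattern of EFR, with untreated levels not called different between the media and a low treated level on NAA. AT4G03450 was the clearest. It read 5.18, 5.05 and 5.11 on B5 and 74.6, 104 and 118 on B5 with antimycin A. On NAA it read 4.83, 5.07 and 5.14, and 5.17, 5.39 and 6.37 with antimycin A. Its probe set thus left the bottom of the intensity range in 1 group of the 4. Since the table holds no detection call, the 9 low values set no lower limit on its level. AT3G48640 went from 7.75 ± 1.08 to 95.5 ± 43.0 on B5 (SD, n = 3) and from 5.79 ± 1.04 to 10.0 ± 2.00 on NAA. Its treated B5 arrays read 63.1, 79.0 and 144, all above 12, the highest value on NAA.

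**Figure D2:**
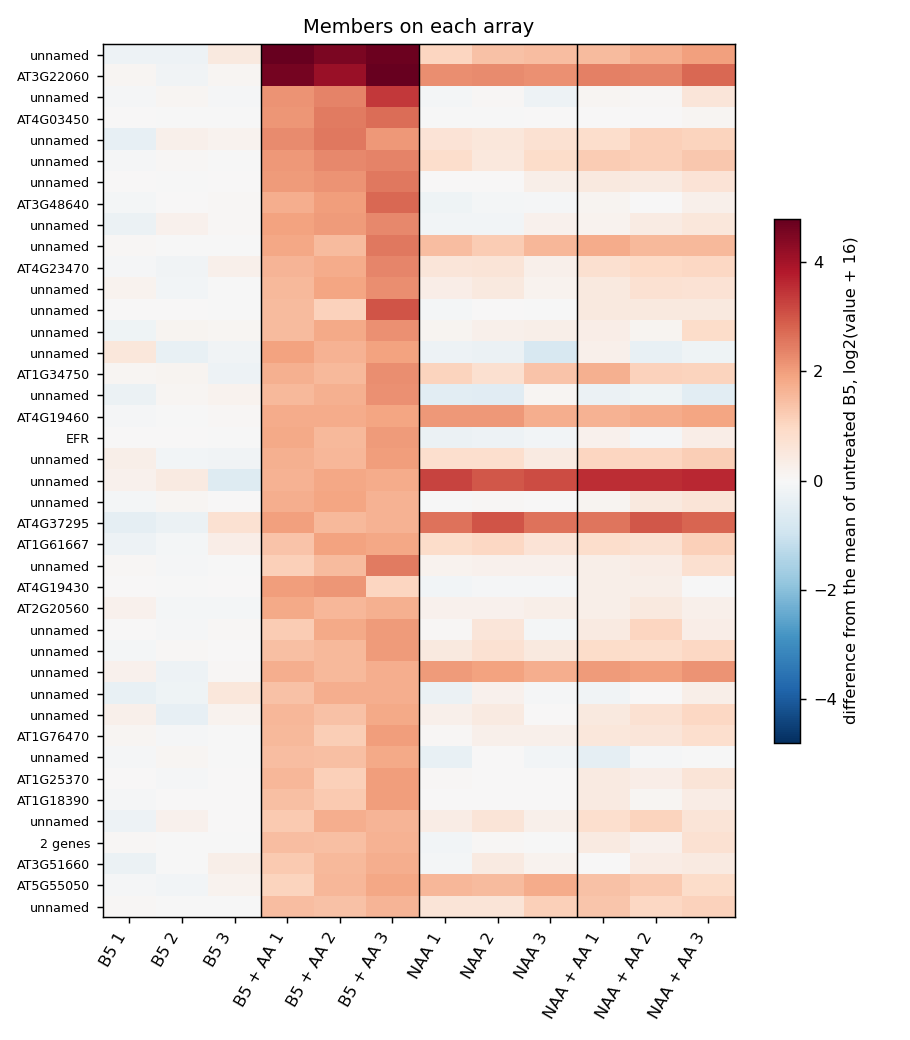
Each row is a member, ordered by its antimycin A effect on B5, and each column an array, with the difference from the mean of untreated B5 in log2(value + 16) as colour. The 3 treated B5 columns are red in every row, while the NAA columns range from pale rows such as AT4G03450 to rows that are red with and without antimycin A, among them AT4G37295, AT3G22060, AT4G19460, AT5G55050, AT1G34750 and unnamed ones.

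Among others of this kind AT2G20560 and AT3G51660 were brighter on treated B5. AT2G20560 read 45.4, 33.0 and 33.1 on untreated B5 and 172, 144 and 154 on treated B5, against 45.5, 45.0 and 48.8 on untreated NAA and 47.7, 56.2 and 46.5 on treated NAA. Its antimycin A effects were 1.71 ± 0.10 (SE) and 0.08 ± 0.10, and all treated B5 arrays lay above the other 9, which spanned 33.0 to 56.2. AT3G51660 went from 479 ± 94.3 to 1402 ± 223 on B5 (SD, n = 3) and from 536 ± 97.0 to 582 ± 90.2 on NAA, where treated and untreated arrays overlapped. AT4G19430 was uneven, at 96.2, 105 and 40.7 on B5 with antimycin A against 9.64 to 18.2 on the 9 other arrays. AT1G25370 read 60.8, 40.4 and 85.8 on treated B5 and 8.45 to 23.0 elsewhere, and AT1G76470 read 62.6, 44.7 and 92.5 against 9.72 to 31.3 elsewhere. In both, the treated NAA arrays lay above the untreated ones without overlap, at 0.41 and 0.47 on the log2 scale, just under the limit of 0.5.

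AT1G18390 was the single named member with a further probe set on the array, and the 2 probe sets disagreed. The member probe set went from 7.5 ± 0.68 to 55.5 ± 20.6 on B5 and from 7.91 ± 0.16 to 13.1 ± 3.64 on NAA (SD, n = 3). The other went from 51.2 ± 2.19 to 561 ± 178 and from 90.2 ± 7.63 to 370 ± 37.8, so that antimycin A effects of 3.06 on B5 and 1.86 on NAA stood beside 1.57 and 0.28. By its other probe set this gene is no member, while its antimycin A effect on NAA minus that on B5 was -1.20 ± 0.25 there and -1.29 ± 0.24 on the member probe set (SE). The calls between the media differed too. On the other probe set NAA was called higher in untreated seedlings (0.66, limma adjusted p = 0.0293) and not called in treated ones (-0.54, limma adjusted p = 0.0601), whereas the member probe set was not called in untreated (0.03, limma adjusted p = 0.939) and called lower in treated ones (-1.27, limma adjusted p = 0.000825).

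In a middle set untreated seedlings were higher on NAA than on B5, and treated ones lower or not called. AT3G22060 read 21.8, 15.1 and 21.3 on B5 and 838, 608 and 956 on B5 with antimycin A. On NAA it read 149, 152 and 147, and 172, 167 and 224 with antimycin A. All 4 groups were free of overlap, in the order untreated B5, untreated NAA, treated NAA and treated B5. NAA raised it by 2.23 ± 0.16 without antimycin A (SE, limma adjusted p = 3.14e-05) and lowered it by 1.99 ± 0.16 with it (-1.99, limma adjusted p = 5.84e-05). Its antimycin A effect was 4.51 ± 0.16 on B5 and 0.29 ± 0.16 on NAA, a difference of -4.22 ± 0.23. AT1G61667 went from 61.0 ± 16.4 to 238 ± 50.6 on B5 (SD, n = 3) and read 121 ± 16.9 and 127 ± 21.3 on NAA without and with antimycin A. NAA raised it by 0.84 in untreated seedlings (limma adjusted p = 0.0146, with 0.00179 to 0.0529 over the settings tried) and lowered it in treated ones (-0.82, limma adjusted p = 0.0159, with 0.00202 to 0.0573). The first of these calls was lost without array 1 or 2 of either untreated group (0.73 to 0.82) and the second without array 2 or 3 of B5 with antimycin A (-0.71 and -0.75) or array 2 of NAA with antimycin A (-0.73).

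AT4G23470 read 273, 248 and 337 on B5 and 906, 1019 and 1506 on B5 with antimycin A, against 434, 440 and 340 on NAA and 494, 571 and 584 on NAA with antimycin A. The treated NAA arrays lay between untreated and treated B5, with a called NAA effect in treated seedlings (-1.01, limma adjusted p = 0.00523) and none called in untreated ones (0.48, limma adjusted p = 0.122). AT1G34750 read 177, 155 and 257 on B5 with antimycin A and 176, 109 and 106 on NAA with antimycin A, so the treated groups overlapped. Without antimycin A it was higher on NAA, at 108 ± 25.4 against 42.9 ± 7.91 on B5 (SD, n = 3; log2 1.06, limma adjusted p = 0.0126).

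**Figure D3:**
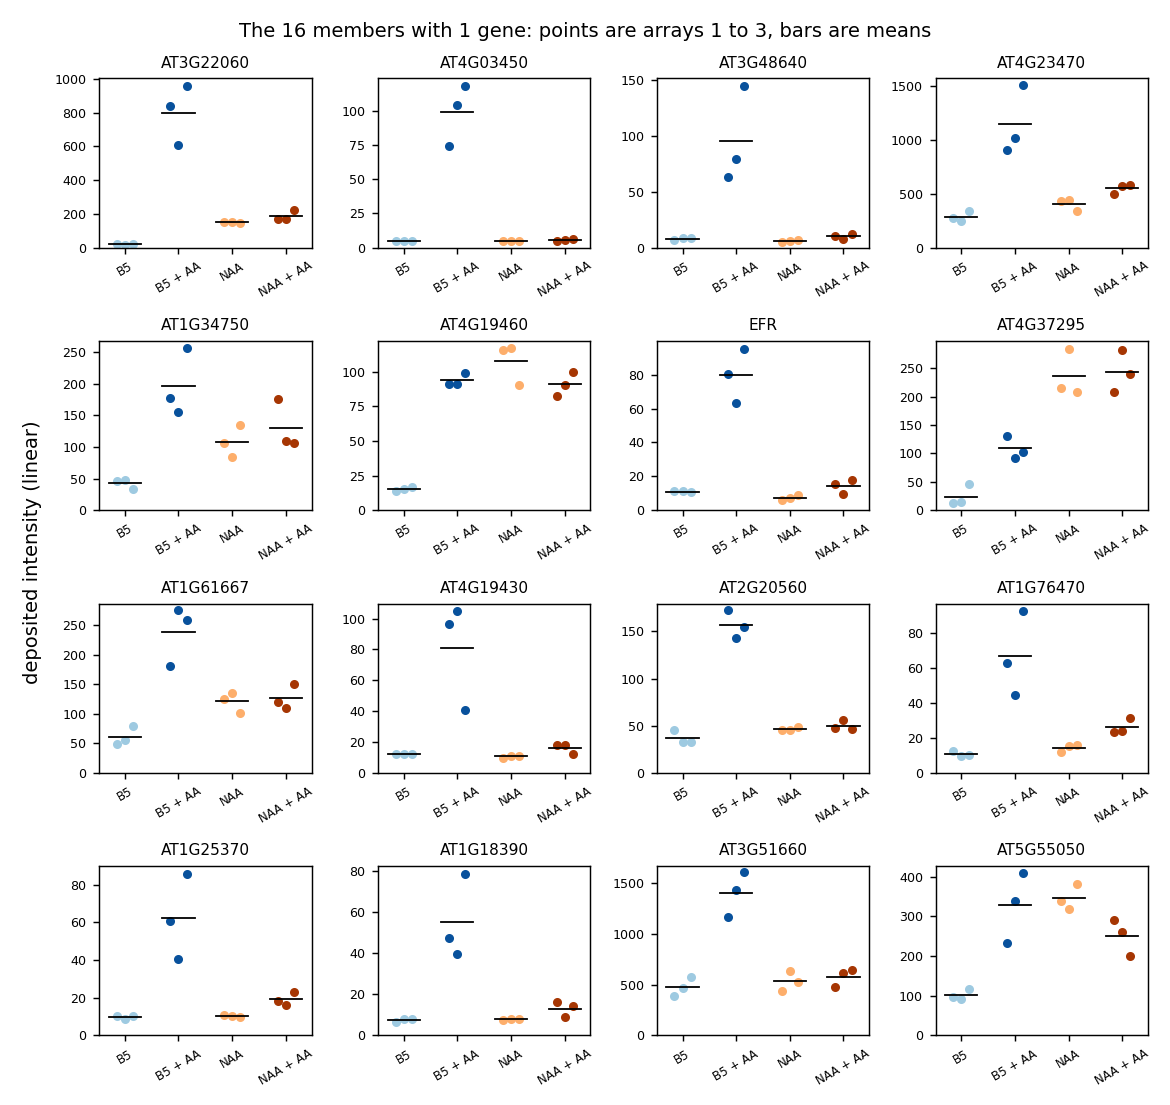
Deposited linear intensities of the 16 members with 1 gene, a panel per gene, with a point per array (replicates 1 to 3 from left to right) and a bar at the mean of each group of 3. Every panel starts at 0, and in AT4G19460, AT4G37295 and AT5G55050 the untreated NAA points lie clear above the untreated B5 points, near or above the treated B5 points.

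At the other end, 3 named loci were as high on NAA without antimycin A as on B5 with it, or higher. AT4G19460 read 13.8, 15.3 and 16.9 on B5 and between 82.3 and 117 on all 9 other arrays, namely 91.0, 91.2 and 99.1 on treated B5, 116, 117 and 90.1 on untreated NAA, and 82.3, 90.7 and 99.7 on treated NAA. NAA and antimycin A, each alone, brought it to overlapping levels, and both together did not go beyond them. The NAA effect was 1.97 ± 0.09 without antimycin A (SE, limma adjusted p = 2.91e-06) and -0.04 ± 0.09 with it (limma adjusted p = 0.788). AT5G55050 read 96.2, 91.6 and 117 on untreated B5, 233, 340 and 410 on treated B5, 338, 318 and 382 on untreated NAA, and 291, 262 and 199 on treated NAA. Here the treated NAA arrays lay below the untreated ones (antimycin A effect -0.45 ± 0.20), the lowest effect on NAA of any member.

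AT4G37295 read 12, 14.4 and 45.4 on untreated B5, 131, 92.9 and 103 on treated B5, 215, 285 and 209 on untreated NAA, and 208, 282 and 241 on treated NAA. Both NAA groups lay above treated B5 and overlapped each other, and array 3 of untreated B5 stood apart from its 2 partners. NAA raised AT4G37295 by 2.74 ± 0.28 without (limma adjusted p = 0.000182) and by 1.06 ± 0.28 with antimycin A (limma adjusted p = 0.0254, with 0.00252 to 0.0809 over the settings tried, the call being lost with a pseudocount of 4, at 1.14, and without array 2 or 3 of either treated group, at 0.95 to 1.06). The unnamed probe set 258399_at had the same order of groups at 59.8 ± 25.4, 234 ± 17.0, 618 ± 60.1 and 846 ± 27.7 (untreated and treated B5, then untreated and treated NAA, SD, n = 3), and 256787_at read 468 ± 73.8, 1525 ± 98.7, 1793 ± 179 and 1981 ± 111.

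Shares of the rise on B5 were taken on the log2 scale of the effects, and not from linear intensities. Over the 41 members the untreated NAA mean stood at a median of 11.9% of that rise, and the treated NAA mean at 33.2%. The treated NAA mean was below 50% of the rise in 27 members, of which 17 were below 25%, and at or above 100% in 3. The untreated NAA mean reached 100% or more in 5. These shares describe the spread among members, between genes such as AT4G03450 (-0.28% and 1.46%) and EFR (-11.8% and 8.99%) at one end and AT4G19460 (109% and 97.7%) and AT4G37295 (159% and 161%) at the other.

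**Figure D4:**
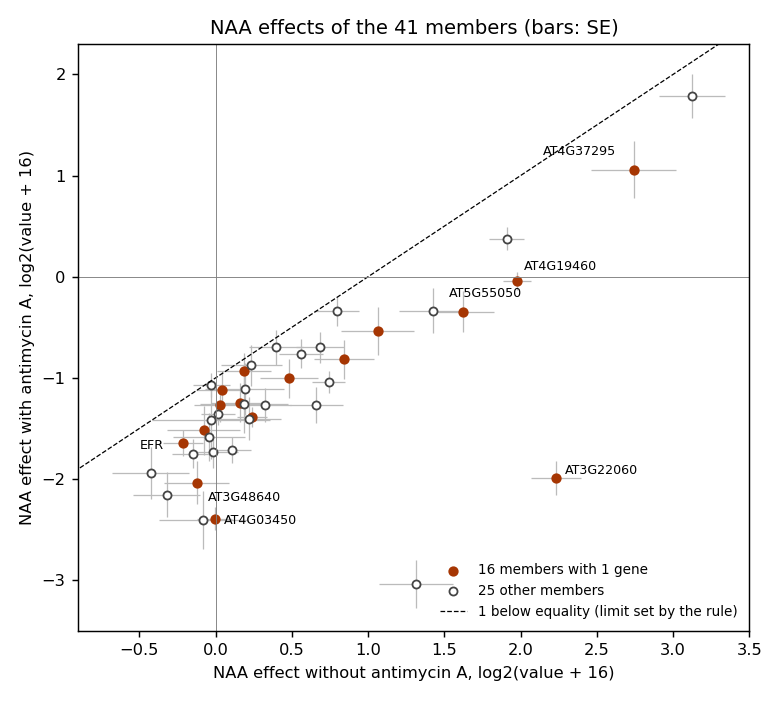
NAA effect with antimycin A against that without it for the 41 members, in log2(value + 16) with SE bars. The rule keeps all points at least 1 below equality (dashed line). Most lie below 0 on the vertical axis, and AT4G37295 and 2 unnamed members alone lie above 0 on both.

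The effects of NAA at each level of antimycin A were not thresholds of the rule, but they share its arrays, and the rule fixes their difference at 1 or more, pushing the effect without antimycin A up and the effect with it down. Their calls are therefore a description. Without antimycin A limma called 15 of the 41 members higher on NAA (10.7% of all probe sets were called higher and 9.67% lower). It called 0 lower, and 0 had an unadjusted p below 0.05 in that direction. With antimycin A 33 were called lower (9.74% of all probe sets) and 3 higher (12.2%), the latter being AT4G37295, 258399_at and 256787_at, and just 1 without array 2 or 3 of B5 with antimycin A or of NAA with antimycin A. Of the 33, 26 were not called without antimycin A and 7 were called higher there, while 5 of the 15 were not called with antimycin A. In 14 members, AT3G22060, AT4G23470 and AT1G61667 among the named ones, all untreated NAA arrays lay above all untreated B5 arrays and all treated NAA arrays below all treated B5 arrays, as did 1.4% of all probe sets.

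The mean of the 2 NAA effects is orthogonal to both effects used in the rule, and it was tested. Its error is uncorrelated with theirs if the spread is equal in all groups. The members' median coefficient of variation (SD in percent of the mean) was 15.9% on untreated and 21.2% on treated B5. On NAA it was 14% without and 16.8% with antimycin A. Where treated B5 spreads more than untreated B5, the rule pushes this mean down, so the lower calls are not free of the choice. A member whose untreated levels were equal on both media would still have a negative mean, since its treated level differs, so a negative sign is no separate sign of an auxin response. Nor does it mark a member as low in both NAA groups: the unnamed 252265_at had a mean of -0.86 (limma adjusted p = 0.00437) although its untreated level was called higher on NAA (1.31, limma adjusted p = 0.00432). Of the 41 members 6 were called higher and 20 lower (limma, adjusted p below 0.05 over all probe sets), or 14.6% and 48.8%, against 16.1% and 13.7% of all probe sets. The members' median was -0.53, that of all probe sets -0.01. For the 409 probe sets that were higher by 1.5 on both media it was -0.16, with 17.8% called higher and 28.6% lower. The share called higher was thus near that of all probe sets, and the share called lower above it. Higher on NAA were AT4G37295 (1.90 ± 0.20, SE, limma adjusted p = 0.00012), AT4G19460 (0.97 ± 0.07, adjusted p = 1.04e-05), AT5G55050 (0.64 ± 0.14, adjusted p = 0.00811) and 3 unnamed members, the highest being 258399_at (2.46 ± 0.15, adjusted p = 7.39e-06). The 8 named members called lower were AT4G03450 (-1.20 ± 0.08, adjusted p = 1.07e-05), AT3G48640 (-1.08), EFR (-0.93 ± 0.09, adjusted p = 8.7e-05), AT4G19430 (-0.80), AT1G18390 (-0.62, but 0.06 and not called on its other probe set, adjusted p = 0.742), AT2G20560 (-0.57), AT3G51660 (-0.54) and AT1G25370 (-0.54). Not called were AT3G22060 (0.12), AT1G61667 (0.01), AT1G34750 (0.26), AT4G23470 (-0.26) and AT1G76470 (-0.37, adjusted p = 0.0529, with 0.00652 to 0.116 over the settings tried). Lateral root markers moved with NAA over the same arrays: LBD29 had a mean NAA effect of 3.09, LBD16 of 1.59 and PUCHI of 0.68, all 3 measured genes of that list being called higher. The root hair expansins EXPA18 (1.22) and EXPA7 (0.99) were called higher too, and the mesophyll gene RCA lower (-0.43). On NAA both expansins were lower with antimycin A (-2.84 and -2.64). In treated seedlings alone the NAA effect was 0.885 for EXPA18 (limma adjusted p = 0.00705) and not called for EXPA7 (0.202, limma adjusted p = 0.499). The markers chosen for root endodermis and stele, phloem, xylem and root tip had no measured gene. Mesophyll, guard cell and trichome each rested on 1 marker, and those of guard cell (-0.28) and trichome (-0.25) were not called. These are RNA values of marker genes and not counts of cells. The part of these marker differences in the members' values was not tested.

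**Figure D5:**
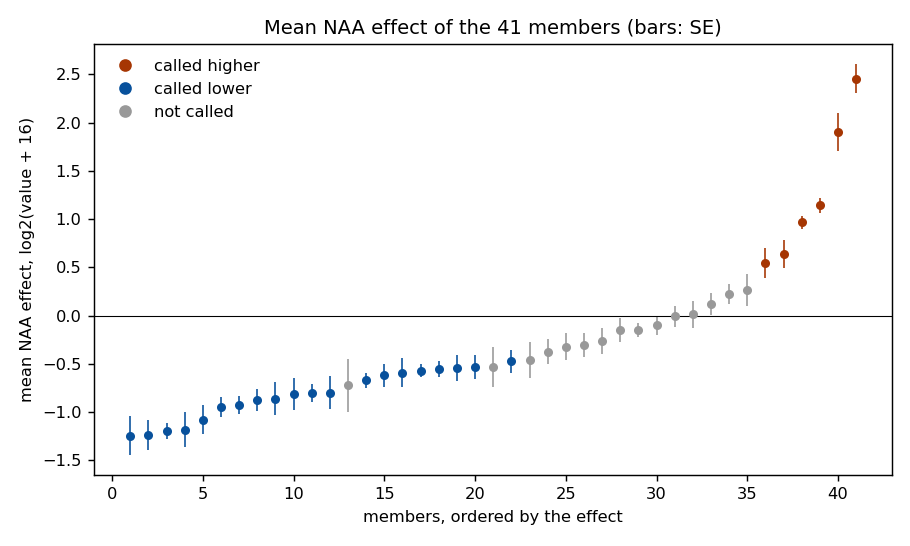
Mean NAA effect of each member over both levels of antimycin A, in log2(value + 16) with SE bars, ordered by size. The 20 members called lower (blue) lie between -0.47 and -1.24, the 6 called higher (brown) between 0.54 and 2.46.

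Replicate 3 of B5 with antimycin A was the highest of its group for 30 of the 41 members, and for 614 of the 772 probe sets with an effect of at least 1.5 on B5. Replicate 3 of NAA with antimycin A was the highest of its group for 27 of the 41 and 384 of the 772. Without replicate 3 of B5 with antimycin A 32 probe sets met the rule, 30 of them among the 41. Members were also chosen on 2 of the 3 replicate numbers and read in the arrays of the third, which took no part in the choice. With number 1 held out 62 probe sets were chosen, and in the held-out arrays their median antimycin A effect was 1.5 on B5 and 0.43 on NAA. With number 2 held out these were 43 probe sets, 1.55 and 0.29, and with number 3 held out 46 probe sets, 2.01 and 0.49. The effect was larger on B5 than on NAA in the held-out arrays for 62 of 62, 43 of 43 and 46 of 46 probe sets, while 20, 22 and 16 of them met both thresholds there. Among all probe sets with an effect of at least 1.5 on B5 in the choosing arrays, whatever their effect on NAA, the held-out effect was larger on B5 for 77.2% of 825, 80.8% of 809 and 88.1% of 699. A larger effect on B5 was thus common among such probe sets, and which of them passed both thresholds varied with the arrays. With 1 array per group in the held-out set there is no test, and probe sets read on the same arrays are no independent repeats.

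Over all the gene lists EFR was the 1 member. The lists were matched by symbol or synonym to probe sets with 1 gene. The 24 unnamed members therefore could not match. For the 15 given by locus code a match rested on that code or a synonym. GH3.5 and ROF2, in the auxin and heat shock lists, met both thresholds but were left out by name. The lists thus do not show which families the members belong to. Of 51 measured UDP-glycosyltransferases, enzymes that attach sugars to small molecules, 5 had antimycin A effects of at least 1.5 on B5, and all 5 stayed above 0.5 on NAA, from UGT71C5 (1.52 and 0.89) to UGT73B4 (4.29 and 4.10). In that list 10 were called higher and 12 lower on B5, and 11 and 11 on NAA (11.6% of all probe sets were called higher and 13.2% lower on NAA). Of 23 cytochrome P450 enzymes CYP84A4 (1.84 and 0.95) and CYP71B23 (1.94 and 0.70) passed 1.5 on B5, with 2 called higher and 5 lower on B5 and 2 and 2 on NAA. In the cell wall list of 40 genes the xyloglucan-modifying XTH18 (4.64 and 2.63), ATPMEPCRB (3.12 and 1.11) and EXLA1 did so, with 9 higher and 13 lower on B5 and 9 and 11 on NAA. Of 18 auxin genes GH3.3, a conjugating enzyme like GH3.5, had 5.33 and 1.17, with 3 called higher and 1 lower on B5 and 4 and 2 on NAA. The alternative NAD(P)H dehydrogenases NDB2 (2.12 and 2.01) and NDB4 (2.31 and 2.39), the 2 measured genes of the retrograde list, passed 1.5 on both media. The median antimycin A effect on B5 was 0.01 or 0.02 in these 4 family lists, against 0.01 over all probe sets.

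In the order of protein-coding genes along the chromosomes (RefSeq, TAIR10.1, used for neighbours only) the 16 named genes lay on all 5 chromosomes, with 5 each on chromosomes 1 and 4. AT4G19430 and AT4G19460 were 2 genes apart, with opposite mean NAA effects (-0.80 and 0.97). Of the genes directly beside a member 15 had a probe set given to that 1 gene, with antimycin A effects on B5 of -0.70 to 2.40 and a median of 0.02. The highest was AT4G37290, next to AT4G37295, at 2.40 on B5 and 1.32 on NAA, with a mean NAA effect of 1.38. None of the 15 was a member.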

How the data were processed

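The deposited file is a single table of linear intensities for every probe set on each array. MAS5, RMA and Partek appear in the submitters' processing notes without a role, so which of them made the values stays unknown. Array medians of 33.7 to 39.7 and 75th percentiles of 164 to 174 were alike between arrays, and a global change in RNA cannot be read from them. The number of arrays, 12, limits the precision.

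Of 22810 probe sets 64 controls were left out, and values became log2(value + 16). The array annotation gives 13513 probe sets 1 gene, 503 several and leaves 8730 unnamed here, and 13436 of the 13513 were matched to the RefSeq table. limma 3.58.1 (R 4.3.3) fitted a mean per group over the 12 arrays (8 residual degrees of freedom), and its two-sided moderated p-values were adjusted by Benjamini-Hochberg across the 22746 probe sets and called below 0.05. The fit was tested on simulated data in which each probe set had the same spread in all groups. Neither the rule nor unequal spread was part of that test. Between groups, deviations of arrays with the same replicate number had correlations of -0.103 to 0.35 (median 0.0709). Those with different numbers had -0.329 to 0.279 (median -0.0392). These ranges overlapped and cannot show that pairing was absent. The main fit used no pairing. P-values set a difference of groups against the spread between arrays within groups, which the fit takes as shared by all groups.

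Members and lists were chosen with earlier results of these data known. Named by rule were members with 1 gene among the 12 largest effects on B5, the 8 highest and 8 lowest called in the mean NAA effect, list members, the brightest and dimmest, and probe sets nearest the thresholds, which took in all 16. Unnamed members and genes of the receptor kinase, glycosyltransferase, P450, cell wall, auxin and retrograde lists were singled out after their values were seen. Alternatives were 2 normalizations, 2 pseudocounts, a filter on dim probe sets, a variance model, a replicate block and leaving out arrays. Promoter motifs were not analysed here.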

Additional observations from a re-analysis of the deposited data

Results flagged for a closer look

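In 14 members all untreated NAA arrays lay above all untreated B5 arrays and all treated NAA arrays below all treated B5 arrays, as did 1.4% of all probe sets. Among the named ones AT3G22060 had NAA effects of 2.23 without and -1.99 with antimycin A, and AT1G61667 of 0.84 and -0.82 (log2). AT4G23470 had 0.48 and -1.01, of which the first was not called (limma adjusted p = 0.122, and not called in 18 of 20 settings). The difference was not tested, since the rule that chose the members fixes its sign and its least size.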

How the results depend on the processing

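Membership depended on the pseudocount, because many members were dim: 15 of 41 had an untreated B5 mean below 16. With a pseudocount of 4 64 probe sets met the rule (29 of the 41 among them), with 64 18 did (10 of the 41), and with the filter on dim probe sets 27 did, by construction a part of the 41. Under that filter 12 members were called lower in the mean NAA effect and 19 in the NAA effect with antimycin A, since 27 of the 41 were tested. Leaving out 1 array, or a replicate number in every group, gave 32 to 62 members, the highest without replicate 1 of every group, and 1 to 3 called higher with NAA in treated seedlings. The other counts of calls stayed within 1.5 times the reported ones, at 5 to 6 higher and 20 to 23 lower for the mean NAA effect without an array. Median centring moved the mean NAA effect of every probe set by -0.11 and raised the lower calls from 20 to 28. With the replicate number as a block the mean NAA effect called 6 higher and 21 lower. Shares called over all probe sets were taken in the main setting alone. The counts under other settings therefore cannot be read against a background, least of all with centring, which lowered every probe set. Over 16 named genes, 3 effects and all settings, 867 of 891 values kept their call, 12 lost and 12 gained a call, and none changed direction with a call. Values called in neither setting counted as kept even where their direction changed. Dim probe sets have no detection call, so small effects among them cannot be read.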
